A study of Mus musculus with 15 samples.

Results

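The group coded HF was compared with the group coded Control across all genes measured in mouse hypothalamus. The comparison took 6 of the 15 samples of the series, 3 labelled HF and 3 labelled Control, and used every gene whose mean over the 5 groups reached 1 RPKM (a read density: reads per kilobase, relative to all reads that mapped). All groups were CD-1 mice, an outbred stock, and whole hypothalami were taken on postnatal day 15 for sequencing of total RNA. The series title places the animals in the F2 generation of a study on thyroid hormone. The codes Control, HF, HM, PGM and PGF are kept as the labels give them, since the labels used here give no treatment, lineage, sex or number of pooled animals.

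The deposited table holds 1 mean per transcript and group, so a gene has 1 value in HF and 1 in Control. No standard deviation, test or leave-out of a sample was possible, and a difference below may rest on 1 of the 3 samples. Depth is unknown. A difference is log2(HF + 0.5) minus log2(Control + 0.5) on mean RPKM, and "at 1.5-fold" means that this difference reached 1.5-fold on that scale, which understates genes with low values.

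The hypothalamus joins the nervous and endocrine systems. Its Trh neurons drive thyrotropin release from the pituitary, tanycytes lining the ventricle and astrocytes convert thyroxine to the active hormone through the deiodinase Dio2, and neurons remove active hormone through Dio3. Thyroid hormone acts through the nuclear receptors Thra and Thrb, which bind DNA with retinoid X receptors and exchange corepressors for coactivators when hormone binds. Genes such as Hr and Klf9 are known to respond to it in brain.

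Of 24831 gene names 17481 were kept. The median difference over them was 0.02, the central 95% lay between -0.24 and 0.32, 10241 genes (58.6%) were higher in HF and 7178 (41.1%) lower. At 1.5-fold 115 genes were higher in HF (0.658% of the genes) and 30 were lower (0.172%), together 0.829%. At 2-fold there were 40 and 14. Low values make up much of these counts, since 57 of the 115 and 20 of the 30 were under 5 RPKM in both groups.

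The 2 columns also differ in ways that may bear on other results. Y-linked genes were far lower in Control: the helicase gene Ddx3y was at 2.52 RPKM in Control against 15.91 in HF, 16.75 in HM, 30.41 in PGM and 31.97 in PGF, and the translation factor gene Eif2s3y was at 2 against 10.52, 10.07, 27.48 and 24.75. All 5 kept names of the list were higher in HF, with a median of 2.12, and Smcy and Kdm5d among them are names of the same gene. Xist, the RNA that silences 1 X chromosome in females, was at 44.0 RPKM in Control and 35.4 in HF, and 7 of 7 listed X genes were lower in HF. A subset of the crystallins of the eye lens was higher in Control than in every other group (Cryge at 4.11 RPKM in Control, 0.07 in HF, listed at 0 in HM, 0.04 in PGM and 0.04 in PGF), and 8 of the 20 listed lens genes lay above 1 RPKM in Control and under 1 in HF, all below the filter over the 5 groups. The 7 lens genes that were kept, some of which brain cells express too, gave 3 higher and 4 lower in HF, with a median of -0.08. Their part, and that of the share of males, in any other difference was not tested. Hypothalamic identity was plain in both columns, with the vasopressin gene Avp at 658.5 and 521.3 RPKM and the oxytocin gene Oxt at 503.6 and 418.1 RPKM in Control and HF.

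Because a difference may go with either column, the place of each group among the 5 was recorded. Of the 115 genes higher in HF, Control was the lowest of the 5 groups in 73 (63.5%) and HF the highest in 56 (48.7%), with 21 in both. Over all kept genes these shares were 23.3% and 24.6%. Of the 30 lower genes, HF was the lowest of the 5 in 20 (66.7%) and Control the highest in 15 (50%), where all genes gave 8.76% and 25.0%. Both sets were picked on the same HF and Control values. That choice by itself favours these places, so the shares beside those of all genes are no test. HF stood at least 1.5-fold above the next group in 18 gene names and at least 1.5-fold below it in 10. The 18 need not all be separate genes. Gm1987 (0.77 RPKM in Control, 2.03 in HF) nearly repeats Ccl21a (0.77 and 2.04). Clone names such as mKIAA0866 had no matched position and may repeat listed genes as well. The genes described first below are mostly ones in which HF stood apart in this way.

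**Figure D1:**
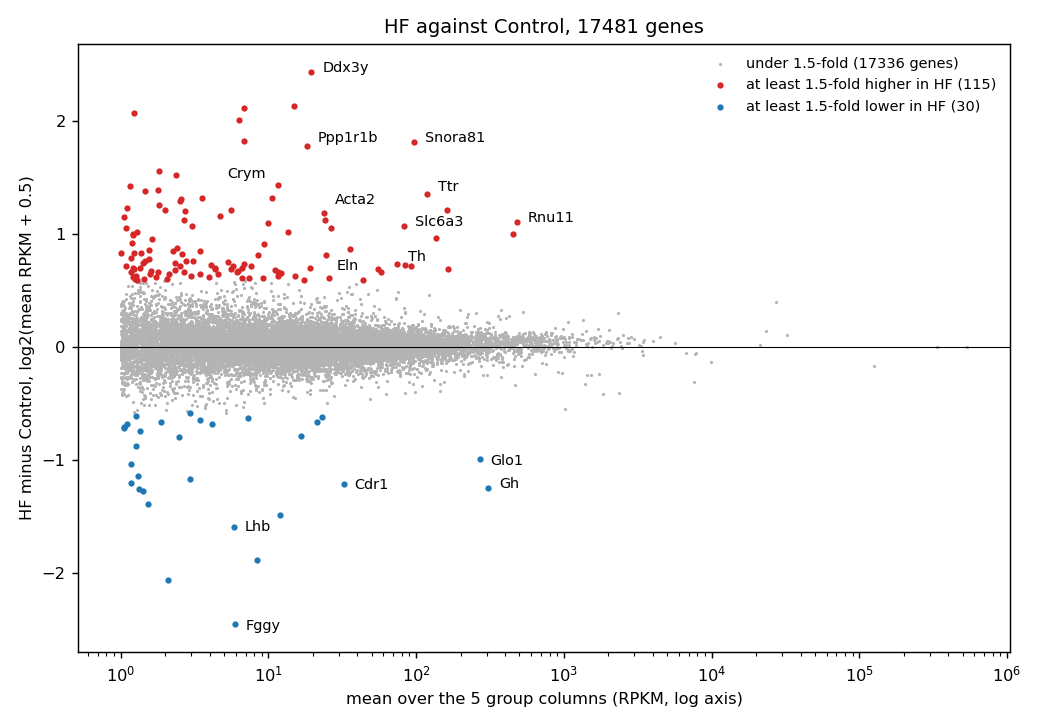
Difference of HF from Control, as log2(mean RPKM + 0.5), against the mean over the 5 group columns in RPKM on a log axis, with 1 point per gene. The 115 genes at 1.5-fold higher (red) and the 30 lower (blue) are spread over the range of expression, and many sit at the low end; Fggy has the largest difference downwards and Ddx3y the largest upwards.

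Genes of contractile smooth muscle were higher in HF, and apart from the Y-linked genes their list had the highest median of all lists with at least 3 kept members. Vascular smooth muscle wraps arteries and arterioles and is built on a contractile apparatus of its own actin and myosin forms, with elastin in the arterial wall. All 9 kept members of the list were higher in HF, 6 of them at 1.5-fold, and HF was the highest of the 5 groups in 9 of 9. The median difference was 1.02, against 0.02 over all genes, while the same list had medians of -0.18 in HM, -0.19 in PGM and 0.16 in PGF against the same Control column. The summed level was 207 RPKM in HF and 113 in Control, with 92.8 in HM, 91.5 in PGM and 112 in PGF. Actg2 and Lmod1 did not reach 1 RPKM.

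Acta2, the smooth muscle actin, was at 19.58 RPKM in Control, 45.31 in HF, 17.20 in HM, 14.91 in PGM and 22.56 in PGF. HF stood alone, and the other 4 groups lay between 14.91 and 22.56. Myh11, the smooth muscle myosin heavy chain, gave 3.69 in Control, 8.86 in HF, 3.61 in HM, 2.98 in PGM and 4.43 in PGF. Tagln, an actin-binding protein of smooth muscle, gave 11.43 in Control, 23.74 in HF, 9.72 in HM, 9.97 in PGM and 12.80 in PGF. The differences of these 3 genes were 1.19, 1.16 and 1.02. Tpm2, a tropomyosin of muscle thin filaments, was at 7.63 in Control and 16.94 in HF, and Cnn1, calponin, at 0.705 and 2.74, a difference of 1.42 on a low level. Eln, the elastin of the arterial wall, was at 24.72 in Control and 43.83 in HF, with 15.89 to 19.85 in the other 3 groups. The myosin light chain Myl9 was at 35.5 and 51.6 RPKM (0.53), its kinase Mylk at 5.71 and 7.98 (0.45) and the filament protein Des at 2.72 and 3.33 (0.25), all short of 1.5-fold.

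HF was also at least 1.5-fold above the next group for Cytl1, Ctgf and Mfap5, genes of secreted or matrix proteins. Cytl1 was at 1.28 RPKM in Control and 3.77 in HF, Ctgf, a matricellular growth factor modulator, at 10.95 and 17.18, and the microfibril protein gene Mfap5 at 1.48 and 2.5. Fbln5, a fibulin needed for elastic fibres, was at 3.37 and 5.44, with HM at 4.2, and the LIM protein gene Crip1 at 13.86 and 21.66, with HM at 14.52; for this pair, picked with its values in view, HF was highest by less than 1.5-fold. Mfap5 differed by 0.50, under 1.5-fold, with a pseudocount of 1 RPKM.

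Lists for other cells of vessels and coverings had smaller medians. The list for brain endothelium and pericytes had 14 of 19 members higher in HF, none at 1.5-fold, and a median of 0.04. The list for meninges and fibroblasts had 16 of 17 higher, none at 1.5-fold, with a median of 0.21 and HF the highest group in 16 of 17. Its summed level was 568 RPKM in HF, 486 in Control, 313 in HM, 271 in PGM and 366 in PGF, so HF and Control both stood above the other 3 groups here. Col3a1, a fibrillar collagen, had the largest difference of that list (24.70 in Control, 33.41 in HF), and Col1a1 went the other way (42.05 and 37.64). In bulk tissue, more cells of a type and more RNA per cell cannot be told apart. All 4 kept red blood cell genes were lower in HF, and their median was -0.23. Without the filter the median was 0.011, since low genes such as Slc4a1, the red cell anion exchanger (0.88 in Control and 1.74 in HF), were higher.

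To show one of these promoters in sequence, the 250 bases upstream of the start were read for the 6 kept genes of the smooth muscle list that have an entry in the RefSeq promoter table (GRCm38.p6). The CArG box, the site known to bind serum response factor at contractile genes, was searched on both strands. Only its exact form was taken, which is CC, 6 bases that are each A or T, and GG. It was found in 1 of the 6, Myl9, and in 1.62% of 27025 genes. A match is a description of letters and no site or cause, and genes without one in this window may carry it elsewhere. They may also hold an inexact form in this window, as Acta2 does with ccctatatgg and ccttgtttgg. The match of Myl9 is in capitals, 161 bases before the start.
Myl9 (chr2:156775214-156775463, plus strand): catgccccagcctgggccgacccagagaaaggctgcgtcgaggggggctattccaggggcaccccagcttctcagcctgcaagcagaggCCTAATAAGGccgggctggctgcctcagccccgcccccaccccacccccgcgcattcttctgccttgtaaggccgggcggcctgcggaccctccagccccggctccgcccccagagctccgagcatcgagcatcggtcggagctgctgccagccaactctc

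Genes of dopamine neurons were also higher in HF. Dopamine neurons make the transmitter with Th and Ddc, load it into vesicles with Slc18a2 and take it back up with Slc6a3. The list was written for midbrain dopamine neurons, but hypothalamic dopamine neurons also express Th, Ddc and Slc18a2. Of the 14 kept members 11 were higher in HF and 8 of them at 1.5-fold, with a median difference of 0.64 and HF the highest of the 5 groups in 10. The list medians against Control were 0.21 in HM, -0.35 in PGM and 0.30 in PGF, and the summed level was 363 RPKM in Control, 572 in HF, 423 in HM, 297 in PGM and 488 in PGF. The groups thus formed a graded series with HF at the top and PGM at the bottom, unlike the smooth muscle genes.

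The dopamine transporter gene Slc6a3 was at 58.10 RPKM in Control, 122.63 in HF, 76.88 in HM, 45.95 in PGM and 109.60 in PGF, a difference of 1.07 between HF and Control. HF and PGF were close together. Th, the rate-limiting enzyme, was at 62.03 in Control, 103.37 in HF, 74.32 in HM, 48.14 in PGM and 82.53 in PGF (0.73). En1, a transcription factor that midbrain dopamine neurons need for survival, was at 2.13, 5.02, 3.08, 1.57 and 3.30 in the same order (1.07). Chrna6, a nicotinic receptor subunit of dopamine neurons, was at 16.66 in Control and 27.32 in HF (0.70), and Aldh1a1, an aldehyde dehydrogenase of a dopamine neuron subset, at 46.81 and 74.73 (0.67). The factors En2 (0.83) and Foxa2 (0.66) and the vesicular protein gene Slc10a4 (0.61) were the other members at 1.5-fold.

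A further 3 members were higher without reaching it: Ddc at 66.47 RPKM in Control and 93.51 in HF, Slc18a2 at 34.67 and 48.16 and the growth factor receptor gene Ret at 34.19 and 41.77. The factors Nr4a2 (11.90 and 11.61), Foxa1 (2.32 and 2.15) and Lmx1b (3.08 and 2.80) were lower in HF. Pitx3 did not reach 1 RPKM. Among other transmitter systems the histamine enzyme gene Hdc was at 35.55 and 35.41, and the GABA enzyme genes Gad1 and Gad2 at 162 and 173 and at 189 and 194. The cholinergic genes Chat (4.81 and 6.995) and Slc18a3 (7.85 and 10.35) were higher in HF, under 1.5-fold. The part of tissue boundaries at dissection in the dopamine difference was not tested. NBRE, the AAAGGTCA element known to bind Nr4a factors, was found on either strand in the upstream 250 bases of 1 of 11 kept members with an entry (Ddc) and of 1.55% of all genes.

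**Figure D2:**
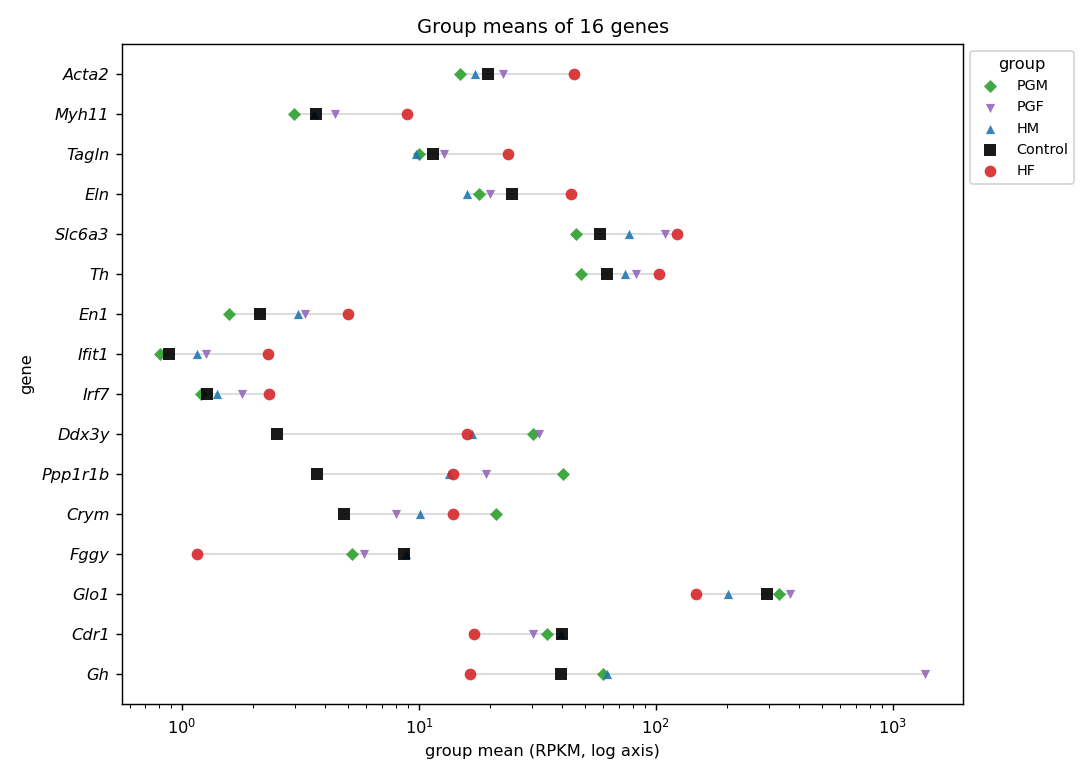
Mean RPKM on a log axis for 16 genes, with 1 marker per group (Control black square, HF red circle, HM blue triangle, PGM green diamond, PGF purple triangle). HF stands alone at the right for the smooth muscle genes and alone at the left for Fggy, Glo1 and Cdr1, while Control stands alone at the left for Ddx3y and Ppp1r1b.

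Genes induced by interferon were higher in HF at low levels. Interferons act on their target genes through the interferon-stimulated response element (ISRE), a DNA element in front of those genes that a complex with Irf9 binds. Of 20 kept members 18 were higher in HF, 4 of them at 1.5-fold, with a median of 0.34 and HF the highest group in 15. The medians against Control were -0.01 in HM, -0.03 in PGM and 0.15 in PGF. With genes under 3 RPKM left out the HF median was 0.18.

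Ifit1, an antiviral RNA-binding protein, was at 0.88 RPKM in Control, 2.30 in HF, 1.15 in HM, 0.81 in PGM and 1.26 in PGF. Irf7, the factor that amplifies interferon production, was at 1.27 in Control, 2.33 in HF, 1.40 in HM, 1.2 in PGM and 1.79 in PGF. Usp18, which removes Isg15 from proteins, was at 0.58 and 1.42 in Control and HF, close to PGF at 1.37. Ifitm3, a membrane protein that blocks virus entry, was the most abundant of the 4, at 15.44 in Control, 23.61 in HF, 14.32 in HM, 14.60 in PGM and 18.52 in PGF. The Irf9 gene itself was at 6.54 and 9.92 (0.57) and Ifit3 at 8.08 and 10.98 (0.42). Bst2 (25.95 and 22.20) and Xaf1 (2.54 and 2.24) were lower in HF. With a pseudocount of 1 RPKM the differences of Ifitm3 (0.58) and Irf7 (0.55) were under 1.5-fold.

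The promoters of these genes are shown because a known element can be read in them. The ISRE core, which is GAAA and again GAAA with 2 bases of any kind between them and was searched on both strands in the 250 bases upstream of the start, was present in 9 of the 16 kept members that have an entry (56.3%) and in 3.46% of 27025 genes. The list was drawn up from known interferon targets, so the share describes the list and is no test. Ifit1, Ifit3, Isg15 and Irgm1, an immunity GTPase, are given from RefSeq (GRCm38.p6), in the direction of transcription, with the core or its reverse complement in capitals. Cores overlap in Isg15 and Irgm1.
Ifit1 (chr19:34640639-34640888, plus strand): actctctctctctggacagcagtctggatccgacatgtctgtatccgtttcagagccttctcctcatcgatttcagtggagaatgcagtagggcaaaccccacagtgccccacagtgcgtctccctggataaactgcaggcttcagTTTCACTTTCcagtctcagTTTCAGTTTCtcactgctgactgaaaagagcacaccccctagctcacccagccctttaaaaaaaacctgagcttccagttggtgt
Ifit3 (chr19:34583279-34583528, plus strand): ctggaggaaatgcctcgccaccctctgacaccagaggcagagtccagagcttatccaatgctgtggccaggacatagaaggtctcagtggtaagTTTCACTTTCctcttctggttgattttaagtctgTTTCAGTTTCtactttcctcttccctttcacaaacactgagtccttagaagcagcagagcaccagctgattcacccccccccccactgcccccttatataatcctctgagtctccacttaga
Isg15 (chr4:156200819-156201068, minus strand): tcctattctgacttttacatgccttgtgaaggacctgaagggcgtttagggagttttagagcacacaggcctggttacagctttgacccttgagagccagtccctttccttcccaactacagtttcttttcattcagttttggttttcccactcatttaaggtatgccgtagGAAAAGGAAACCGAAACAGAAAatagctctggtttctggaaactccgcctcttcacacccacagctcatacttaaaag
Irgm1 (chr11:48871421-48871670, minus strand): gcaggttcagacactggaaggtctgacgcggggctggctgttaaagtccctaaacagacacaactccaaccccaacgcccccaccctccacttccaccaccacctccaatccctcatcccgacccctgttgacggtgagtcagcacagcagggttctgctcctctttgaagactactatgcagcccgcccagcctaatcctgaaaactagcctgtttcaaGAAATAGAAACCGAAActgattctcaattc

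These 4 genes differed by 1.02, 0.42, 0.41 and 0.32 between HF and Control. Bst2, which was lower in HF, also carries 2 cores, and Irf7 and Ifitm3, at 1.5-fold, carry none in this window.

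Genes that present antigen were less different. Of 15 kept members 12 were higher in HF, with a median of 0.11. H2-Aa, a class II chain, was the member at 1.5-fold (4.98 RPKM in Control, 8.37 in HF, 3.97 in HM, 4.58 in PGM and 5.90 in PGF), and its chaperone Cd74 was at 11.86 and 15.10. Clec10a, a lectin of macrophages and dendritic cells, was at 1.78 and 3.70. The near-identical chemokine genes Ccl21a, Ccl21b and Ccl21c were at 0.77 and 2.04, 1.17 and 2.37, and 1.10 and 2.22, and reads cannot be assigned to 1 of them with certainty. HF was the highest group in each of these chemokine genes, and at least 1.5-fold above the next group in Ccl21a. Clec10a, Ccl21b and Ccl21c were picked with their values in view. Microglia markers were higher in 10 of 14 cases, none at 1.5-fold, and their median was 0.09.

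The largest difference downwards belonged to Fggy, a carbohydrate kinase gene on chromosome 4 (chr4:95557507-95926939, plus strand, GRCm38). It was at 8.60 RPKM in Control, 1.16 in HF, 8.79 in HM, 5.21 in PGM and 5.84 in PGF, a difference of -2.46. HF was far below all other groups. The 4 transcripts listed for Fggy stood at 12.8% to 14.0% of their Control value. The 9 other kept genes that start within 1 Mb, a window chosen after Fggy was seen, ranged from -0.17 to 0.14 with none at 1.5-fold. The nearest, Hook1, begins 409.7 kb from the start of Fggy.

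Glo1, which encodes glyoxalase 1 and clears methylglyoxal, was the most abundant gene among the 30 lower ones. It lies on chromosome 17 (chr17:30584936-30626871, minus strand) and was at 295 RPKM in Control, 148 in HF, 201 in HM, 332 in PGM and 368 in PGF, a difference of -0.996. HF was lowest and HM next. Both transcripts differed alike, at 50.1% and 49.96% of Control. Its neighbour Btbd9, which starts 50.4 kb away, was at 36.6 and 29.7 RPKM by the median of 4 transcripts. The 4 did not differ alike: 1 transcript was at 66.60 in Control, 37.05 in HF, 48.54 in HM, 66.70 in PGM and 68.60 in PGF (-0.84), and the other 3 were at 79.8% to 81.5% of Control in HF. Glp1r, the receptor for glucagon-like peptide 1 on the other side of Glo1, was at 11.71 in Control and 8.91 in HF (-0.38), and Zfand3 at 53.4 and 45.8. All 13 neighbours within 1 Mb were under 1.5-fold, from -0.38 to 0.05. A stretch that holds Glo1 is known to be duplicated in some mouse strains; copy number was not measured here, and its part in the result was not tested.

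The third pattern was a pair of adjacent genes on chromosome 6, picked with their values in view. 1700019G17Rik was at 10.86 RPKM in Control, 2.58 in HF, 11.25 in HM, 8.62 in PGM and 8.46 in PGF (-1.89). Cml2, of the camello acetyltransferase family, was at 1.62, 0.46, 1.92, 1.28 and 1.26 in the same order (-1.14). HF was lowest in both, and the other 4 groups lay between 8.46 and 11.25 for 1700019G17Rik and between 1.26 and 1.92 for Cml2. These are members of a gene family in tandem, so reads may be shared between them. Of the 32 other kept genes within 1 Mb of 1700019G17Rik, Cml2 was the only one at 1.5-fold.

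Cdr1 on the X chromosome (chrX:61184005-61185558) was at 40.28 RPKM in Control, 17.13 in HF, 39.70 in HM, 34.53 in PGM and 30.16 in PGF (-1.21). An antisense RNA, C230004F18Rik, covers this gene and was at 12.42 in Control and 13.11 in HF (0.08). The sources used here do not give whether strands were separated, so the value of Cdr1 may belong to either strand. The 4 kept neighbours of Cdr1, this RNA among them, ranged from -0.19 to 0.09. Zfp738, a zinc finger gene, was at 20.41 in Control, 11.61 in HF, 14.59 in HM, 19.92 in PGM and 16.77 in PGF (-0.79), and 33 neighbours included none at 1.5-fold. Shank1, a scaffold of excitatory synapses, was at 30.5 in Control and 19.1 in HF, but HM (19.1), PGM (23.6) and PGF (14.6) were low too, so there Control was the column apart. By its most abundant transcript Shank1 differed by -0.58, just under 1.5-fold.

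**Figure D3:**
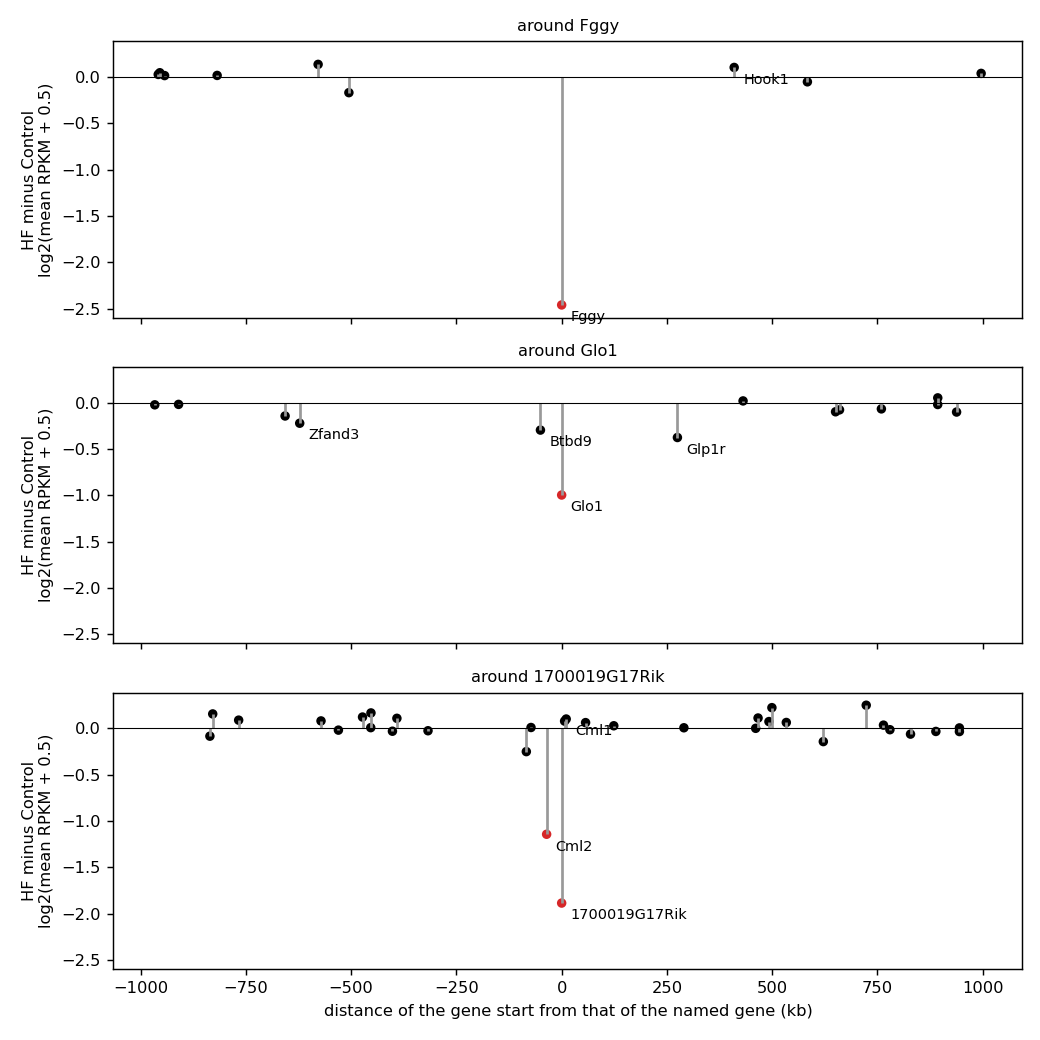
Difference of HF from Control, as log2(mean RPKM + 0.5), for all kept genes that start within 1000 kb of Fggy, Glo1 and 1700019G17Rik, by distance between gene starts in kb; red points reach 1.5-fold. Fggy stands alone, Btbd9 and Glp1r beside Glo1 are lower by less than Glo1, and Cml2 accompanies 1700019G17Rik.

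Hormone genes of the pituitary lay lower in HF for 8 of the 9 kept, 4 of them at 1.5-fold, and the median was -0.46. Fshb and Prl, which are among the 4, passed the filter only through their level in PGF, and without a filter the median was -0.18. Growth hormone, Gh, was at 39.79 RPKM in Control, 16.46 in HF, 62.14 in HM, 59.71 in PGM and 1362.58 in PGF. HF was the lowest and PGF was set apart by more than an order of magnitude. The gonadotropin subunit genes Lhb (3.19 and 0.72) and Fshb (0.83 and 0.09) were lower in HF than in Control, and prolactin, Prl, at 0.90 in Control, was listed at 0 in HF. Cga, the subunit shared by the glycoprotein hormones, was at 26.2 and 18.9, and Tshb, the thyrotropin subunit, at 2.07 and 1.87. The pituitary is attached to the hypothalamus, and its part in these values was not tested.

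Genes of striatal projection neurons were higher in HF too, but PGM lay above HF for each of those at 1.5-fold. Of 17 kept members 14 were higher in HF, 3 of them at 1.5-fold, with a median of 0.12, and Control was the lowest group in 10. Ppp1r1b, the dopamine-regulated phosphatase inhibitor known as DARPP-32, was at 3.70 RPKM in Control, 13.94 in HF, 13.36 in HM, 40.37 in PGM and 19.21 in PGF (1.78). The adenosine receptor gene Adora2a was at 2.19, 5.74, 3.62, 11.71 and 4.58 in the same order (1.21), and the dopamine receptor gene Drd1a at 4.70, 8.04, 6.48, 12.19 and 6.65 (0.72). PGM was highest in all 3. Penk (93.75 and 99.00) and Tac1 (100.9 and 106.7), peptides that hypothalamic neurons make too, differed little, and Pdyn was at 25.45 and 22.22. Markers of thalamic relay neurons were lower in HF for 10 of the 13 kept, median -0.06. The only one at 1.5-fold, Tnnt1, was higher, at 4.62 in Control and 7.58 in HF (0.66), with Control the lowest group. Cortical markers had a median of 0.00.

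The thyroid hormone genes, which the series title concerns, mostly differed little between HF and Control, and 3 of them, Crym, Ttr and Aldh1a1, reached 1.5-fold. In the list for transport and activation 9 of 10 kept members were higher in HF, with a median of 0.14. The members at 1.5-fold were Crym, a cytosolic protein that binds thyroid hormone (4.83 RPKM in Control, 13.88 in HF, 10.07 in HM, 21.22 in PGM and 7.96 in PGF), and Ttr, the carrier transthyretin made by choroid plexus (7.01, 18.70, 22.75, 106.05 and 440.49 in the same order). Control was the lowest group in both. Crym is also a gene of striatal neurons and tanycytes. Of 10 choroid plexus genes 6 were higher in HF with a median of 0.07, a share near the 58.6% of all genes.

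The activating deiodinase gene Dio2 was at 14.47 in Control, 16.76 in HF, 21.58 in HM, 17.74 in PGM and 23.45 in PGF. Slco1c1, a thyroxine transporter of the blood-brain barrier, was at 39.4 and 47.6 in Control and HF. The inactivating Dio3 was at 0.94 and 1.06, with Dio1 also under the filter.

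Receptors and cofactors gave 7 members higher and 10 lower, none at 1.5-fold, with a median of -0.04. Thra was at 404 and 412 RPKM in Control and HF and Thrb at 10.60 and 10.27. In the list of responsive genes 16 of 27 were higher with a median of 0.05, a share near the 58.6% of all genes. Aldh1a1, described above, was the member at 1.5-fold. Hr, a corepressor induced by the hormone, was at 21.95 and 24.02, and the Krüppel-like factor gene Klf9 at 101 and 106. Pvalb, the parvalbumin of fast-spiking neurons, was at 30.28 and 38.35 in Control and HF, against 59.87 in HM, 68.82 in PGM and 84.17 in PGF.

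Trh, the releasing hormone at the head of the axis, was at 135 RPKM in Control, 124 in HF, 111 in HM, 87.9 in PGM and 76.0 in PGF, so HF was the group nearest to Control. The list of Trh, its receptors and its processing enzymes had 2 members higher and 7 lower, from -0.12 to 0.06. Trhr was at 11.99 and 11.64 and the processing enzyme gene Pcsk1 at 39.63 and 38.70.

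The peptides of the arcuate nucleus and of the vasopressin and oxytocin system differed by less than 1.5-fold. Cartpt, an anorexigenic peptide, was at 108 RPKM in Control, 150 in HF, 175 in HM, 83.5 in PGM and 90.8 in PGF (0.46). Agrp and Npy, the orexigenic pair of the arcuate nucleus, were at 12.7 and 16.2 and at 83.5 and 103 in Control and HF, and Pomc at 24.3 and 20.5. Avp and Oxt differed by -0.34 and -0.27. Of 39 kept genes in a wider peptide list drawn up for the hypothalamus 1 reached 1.5-fold. It was Rln3, relaxin 3, known to promote feeding, and the cells its RNA came from were not determined. Rln3 was at 0.57 in Control, 1.15 in HF, 0.78 in HM, 1.13 in PGM and 2.45 in PGF (0.62, or 0.45 with a pseudocount of 1 RPKM). Transcription factors of hypothalamic neurons lay lower in HF for 22 of the 30 kept, none at 1.5-fold, median -0.10; Otp, needed for neuroendocrine neurons, had the largest difference (8.45 in Control, 6.05 in HF, 5.07 in HM, 3.56 in PGM and 3.15 in PGF). Control was the highest group in 18 of the 30.

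Myelin genes, which are known to depend on thyroid hormone, lay higher in HF for 18 of the 24 listed, none at 1.5-fold, and the median was 0.07. The basic protein gene Mbp was at 3228 RPKM in Control, 3440 in HF, 4352 in HM, 4988 in PGM and 6448 in PGF, and HF was again nearest to Control. The list medians were 0.40 in HM, 0.62 in PGM and 0.93 in PGF. Astrocyte markers had a median of 0.00, and the glial factor gene Sox9 was the member with the largest difference (3.69 in Control, 2.54 in HF, 4.13 in HM, 5.30 in PGM and 4.29 in PGF). Genes that respond to glucocorticoids lay higher in HF for 18 of the 20 kept, median 0.20. Their medians against Control were 0.27 in HM, 0.03 in PGM and 0.16 in PGF. Control was the lowest group in 12 of the 20 and HF the highest in 4. The lipid droplet gene Plin4 was at 1.67 in Control, 2.91 in HF and 3.085 in HM. Its HF difference was 0.65, or 0.55 with a pseudocount of 1 RPKM. The kinase gene Sgk1 was at 42.61 and 55.11 in Control and HF, and Tsc22d3 at 192 and 230.

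**Figure D4:**
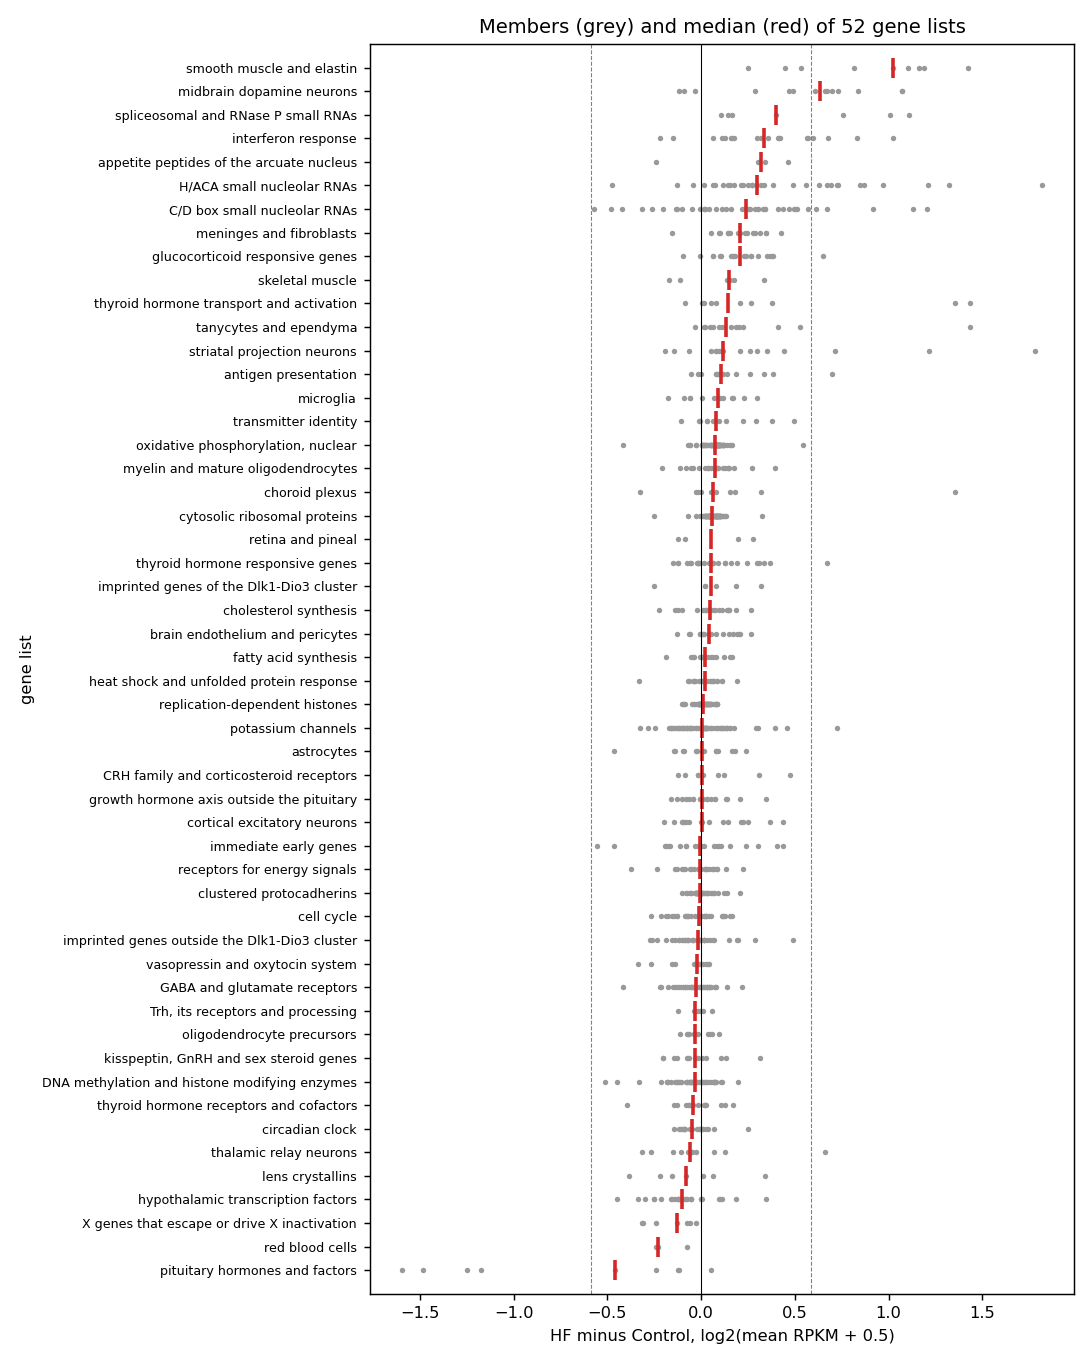
Difference of HF from Control, as log2(mean RPKM + 0.5), for the kept members (grey points) and the median (red bar) of 52 gene lists; dashed lines mark 1.5-fold. Smooth muscle and dopamine neurons lie highest and pituitary hormones lowest, while most lists have medians close to the 0.02 of all genes.

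Many of the genes at 1.5-fold were small RNAs. Among genes with a known length, 42 of the 157 under 200 bases were at 1.5-fold (26.8%) and 90 of the 15055 longer ones (0.598%). Of those 42, 34 were higher in HF. The 157 had medians against Control of 0.25 in HF, 0.20 in HM, 0.26 in PGM and 0.22 in PGF. H/ACA small nucleolar RNAs guide pseudouridylation of ribosomal RNA, C/D box RNAs guide ribose methylation, and most are cut from introns of host genes. Of 33 kept H/ACA RNAs 30 were higher in HF, 11 of them at 1.5-fold, with a median of 0.30; Control was the lowest group in 25 and HF the highest in 2. Of 42 C/D box RNAs 31 were higher, 5 at 1.5-fold, with a median of 0.24; without the filter the median was 0.12, with 8 listed at 0 in HF and 4 in Control. The list drawn for spliceosomal and RNase P RNAs had 7 kept members, all higher, with a median of 0.40, or 0.13 after quantile scaling. Its 3 members at 1.5-fold were Rnu11, Rnu12 and Rnu73b, and the last is annotated as a small nucleolar RNA.

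Differences of the host genes were smaller. The 25 hosts of H/ACA RNAs had a median of 0.05 and the 29 hosts of C/D box RNAs a median of 0.05, and none was at 1.5-fold. Snora81 was at 35.48 RPKM in Control, 126.53 in HF, 83.87 in HM, 35.10 in PGM and 202.48 in PGF, and its host Eif4a2, a translation initiation factor, at 541 and 566 in Control and HF. Snora64 was at 80.1 and 186, and its host Rps2 at 1052 and 1069. Snora69 was at 3.95 and 10.64 with its host Rpl39 at 498 and 515. Rnu11 and Rnu12, RNAs of the minor spliceosome, were at 204 and 440 and at 191 and 383. RPKM of such short RNAs depends strongly on how fragments were selected by size, which the sources used here do not give.

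The sequences of 3 of these H/ACA RNAs are given from GENCODE M21 (GRCm38) to show what was counted. The class is named for an ACA triplet that stands 3 bases before the end, set in capitals in Snora69 and Snora64. In the annotated Snora81 no such triplet was found there.
Snora81 (chr16:23110756-23110933, plus strand): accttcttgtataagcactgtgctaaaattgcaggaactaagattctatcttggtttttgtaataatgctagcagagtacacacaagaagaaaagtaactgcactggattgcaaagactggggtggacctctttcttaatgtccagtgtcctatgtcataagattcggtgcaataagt
Snora69 (chrX:37082912-37083042, minus strand): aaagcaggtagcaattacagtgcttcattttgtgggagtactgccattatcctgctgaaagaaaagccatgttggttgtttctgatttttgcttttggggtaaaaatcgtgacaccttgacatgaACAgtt
Snora64 (chr17:24720772-24720905, plus strand): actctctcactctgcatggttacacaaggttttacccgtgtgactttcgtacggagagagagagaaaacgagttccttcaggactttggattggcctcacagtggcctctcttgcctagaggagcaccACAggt

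**Figure D5:**
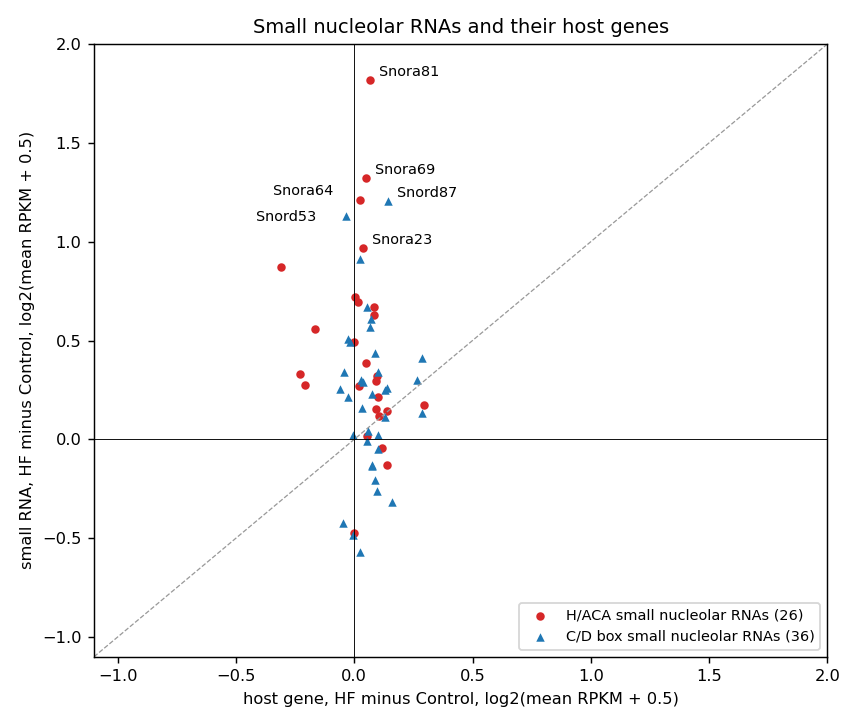
Difference of HF from Control, as log2(mean RPKM + 0.5), of 26 H/ACA (red circles) and 36 C/D box (blue triangles) small nucleolar RNAs against that of the gene that hosts them. The small RNAs spread up to 1.82 (Snora81) while hosts stay between -0.31 and 0.29.

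Of 72 kept microRNA names, which are hairpin genes here and not mature microRNAs, 12 were higher and 8 lower at 1.5-fold, and none of these exceeded 5.24 RPKM in Control or HF. Protein genes of the ribosome and of respiration were mostly slightly higher in HF. Of 82 ribosomal protein genes 78 were higher in HF with a median of 0.06. Oxidative phosphorylation genes of the nucleus were higher in 75 of 81, their median being 0.08, against 0.16 in PGM and 0.14 in PGF. HF was the highest group in 49 of the 82 and in 8 of the 81, and Control the lowest in 12 and 57. With genes divided into 5 bins of transcript length, the HF median of all genes ran from 0.06 in the shortest to -0.01 in the longest. Against the same Control it ran from 0.003 to -0.07 in HM, 0.09 to -0.09 in PGM and 0.04 to -0.12 in PGF. This slope is thus not particular to HF, and the part of length in these lists was not tested.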

How the data were processed

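Total RNA of the hypothalamus was sequenced in 15 samples, 3 in each of 5 groups, which were taken from the sample titles. The deposited table gives RPKM values that the authors averaged over each group, per the file headers, for 49404 transcripts, rounded to 2 decimals. Reads were checked with FastQC and aligned with Novoalign 2.08 to mm10, per the submitters' processing notes. The sources used here do not give the counting program, its use of strand and of shared reads, or the depth. RPKM divides by length and by mapped reads, so any value also moves with what the rest of the library takes.

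Each gene name received the median over its transcripts. Names whose 5 columns averaged at least 1 RPKM were kept, 70.4% of 24831 (BB031773 at 1 RPKM was just inside and Itga10 at 0.999 just outside). Differences used a pseudocount of 0.5 RPKM on the log2 scale. Positions, lengths and small RNA sequences are from GENCODE M21 (GRCm38, the assembly of mm10), and 86.8% of kept genes had a position. Python 3.11.15, numpy 2.4.6, pandas 2.3.3 and matplotlib 3.10.9 were used, and the calculation was tested on simulated data.

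No limma fit was possible with 1 value per group, so the plan for group means was followed. Named genes were the 15 with the largest difference in each direction among those with at least 2 RPKM and an informative name, the 10 in each direction in which HF lay farthest from the next group, the members of the thyroid, Trh, peptide, Y and X lists, and up to 4 members of each other list; further members of a list are given where the list is described, and those and any others were chosen after values were seen. The comparison, the 56 gene lists and the rules were chosen with earlier results of these data known. Alternatives were pseudocounts of 0.1 and 1, no filter or at least 3 RPKM, upper quartile and quantile scaling, the sum or the highest transcript per gene, and a 2-fold threshold. Some genes that the naming rule takes are left out of the text.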

Additional observations from a re-analysis of the deposited data

How the results depend on the processing

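No paired analysis was possible because the table holds 1 mean per group; for the same reason no replicate was left out and no fit was made. Of the 11 alternatives, the 2-fold threshold and the 2 that left genes out gave no values for named genes or lists. At 3 RPKM or more, 230 of the named genes remained. Over the alternatives that gave values, none of the named genes at 1.5-fold changed sign. Of 55 list medians 12 did in at least 1 alternative; for 2 of them, red blood cells and skeletal muscle, the reported median was at least 0.1 in size. Of 280 named genes 59 were at 1.5-fold, and 8 of these were under it in at least 1 alternative (Ifitm3, Irf7, Mfap5, Nrg2, Plin4, Pth2, Rln3 and Shank1). At 2-fold 40 genes were higher and 14 lower, and HF was the highest group in 18 and the lowest in 12. Without the filter the counts were 201 higher and 162 lower, with HF highest in 116 and lowest in 59, and the medians were 0.011 for red blood cells, -0.18 for pituitary, -0.90 for lens, -0.094 for skeletal muscle, 0.12 for C/D box RNAs, 0.28 for spliceosomal RNAs and -0.58 for Glo1 with its neighbours. At 3 RPKM or more there were 62 and 13 genes, HF was highest in 24 and lowest in 11, and the medians were -0.35 for pituitary, 0.036 for lens and 0.18 for interferon. A pseudocount of 0.1 gave 47 lower genes and a Y-linked median of 2.38, and a pseudocount of 1 gave 1.81. Summed transcripts gave 2.34 for Y-linked genes, -0.065 for skeletal muscle and -0.74 for Glo1 with its neighbours, and the highest transcript gave -0.81 for the last. Quantile scaling gave 0.13 for spliceosomal RNAs, with 103 genes higher and 35 lower in all. The 2 alternatives that left genes out were added after seeing the data. Without RNAs under 200 bases 81 genes were higher and 22 lower, and without Y-linked genes 110 and 30. A filter alters by construction which genes are counted; otherwise the cause was not tested. The unknown depth and the missing spread between samples limit every value.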

Other observations

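Some gene groups lie outside the comparisons above. Of 32 kept cell cycle genes 14 were higher in HF and 17 lower, with a median of -0.01, and 59 clustered protocadherin genes, which give neurons their surface identity, had a median of -0.01 with Control the highest group in 36. Enzymes of DNA methylation and histone modification lay lower for 37 of the 56 kept, median -0.03; the histone demethylase gene Kdm6b was at 8.91 RPKM in Control, 6.09 in HF, 5.35 in HM, 5.32 in PGM and 4.39 in PGF, and the methyltransferase gene Setd1b at 3.46, 2.40, 2.03, 1.99 and 1.85 in the same order. In both, Control was highest and HF next. A second name of Setd1b, mKIAA1076, was at 4.70 in Control and 2.96 in HF (-0.59). That name is among the 30 lower at 1.5-fold. Clock genes lay lower for 16 of the 22 kept (median -0.05). Cholesterol synthesis genes lay higher for 18 of the 23 kept (median 0.05). Immediate early genes, which respond to neuronal activity within minutes, were divided into 11 higher and 11 lower, with Fosb at 2.86 in Control and 1.79 in HF and Egr3 at 2.20 and 3.15.

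Hyi, a hydroxypyruvate isomerase gene, was at 13.9 RPKM in Control, 30.9 in HF, 25.95 in HM, 28.1 in PGM and 21.7 in PGF, and both of its transcripts differed alike, at 224% and 221% of Control. Control alone was low. The X-linked lymphocyte-regulated genes Xlr3a, Xlr3b and Xlr3c, close copies of one another, were at 6.48 and 10.19, 5.07 and 9.30, and 3.69 and 6.38 in Control and HF. The only mitochondrial gene of its list in the table, mt-Nd4, was at 2777 in Control and 2090 in HF (-0.41).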
